A study of Homo sapiens with 12 samples.

Results

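The genes described here are SPP1, which encodes the secreted protein osteopontin, and 8 genes that encode receptors for it: CD44, the integrin alpha subunits ITGAV, ITGA5 and ITGA9, and the integrin beta subunits ITGB1, ITGB3, ITGB5 and ITGB6. They were taken by name, 9 genes of the 38516 in the deposited table, and all 9 were found there. SPP1 was chosen by its RPKM, which was lower after silencing in KYSE510 cells, and the receptors were chosen with it, so that contrast is given as a description for every member, with no test. The study sequenced RNA from KYSE150 and KYSE510, established lines derived from human squamous carcinomas of the esophagus. The 4 groups were KYSE150 control, KYSE150 with HCP5 silenced, KYSE510 control and KYSE510 with HCP5 silenced, with 3 libraries each. HCP5 is a long non-coding RNA gene of the MHC region. All library titles begin with sh, the control titles included, and the labels describe neither the silencing nor the control reagent. The labels do not say whether the 3 libraries of a group came from separate cultures, so p-values measure the spread between these libraries, which may be technical.

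Osteopontin is an acidic phosphoprotein of bone matrix that many carcinomas and activated macrophages also secrete. Integrins are pairs of an alpha and a beta chain. An arginine-glycine-aspartate motif in osteopontin is bound by alpha-v paired with beta-1, beta-3, beta-5 or beta-6, and by alpha-5 paired with beta-1. The stretch just after this motif is exposed when thrombin cuts the protein, and is then bound by alpha-9 paired with beta-1. CD44, a membrane glycoprotein best known as the receptor of hyaluronan, is a further reported receptor of osteopontin. In squamous epithelium, integrins and CD44 are found mainly in the basal layer.

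The coding bases of this integrin-binding stretch are shown because they tie the ligand to the alpha-v, alpha-5 and alpha-9 receptors whose levels follow. They lie at chr4:87981733-87981762 (GRCh38, plus strand) in coding sequence, in exon 5, 6 or 7 depending on the transcript, and were in the longest open reading frame of 4 of 5 protein-coding SPP1 transcripts of GENCODE 29. The capitals mark the codons for arginine, glycine and aspartate, and the lower-case codons after them encode the stretch up to the thrombin site.
SPP1 integrin-binding codons: CGAGGTGATagtgtggtttatggactgagg

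The DNA just upstream of SPP1 is shown because SPP1 RNA was almost confined to KYSE510. The window is chr4:87975464-87975649 (RefSeq promoter table, GRCh38.p14, plus strand), and it ends at the base before the first SPP1 exon of the deposited table. It is thus shorter than the 250 bases searched for motifs below, whose last bases are not printed. The capitals mark a match to AACCACA, the core word of RUNX factors.
SPP1 upstream window: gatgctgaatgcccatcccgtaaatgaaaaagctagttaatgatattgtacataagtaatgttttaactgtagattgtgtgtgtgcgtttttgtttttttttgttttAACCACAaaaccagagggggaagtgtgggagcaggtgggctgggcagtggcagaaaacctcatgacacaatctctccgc

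In the deposited table (GRCh38) SPP1 spans chr4:87975650-87983426 with 2321 exon bases. The receptor genes are CD44 at chr11:35138870-35232402, ITGA5 at chr12:54395261-54419460, ITGA9 at chr3:37452115-37823514, ITGB1 at chr10:32900319-33005792, ITGB3 at chr17:47253846-47311816, ITGB5 at chr3:124761948-124901418, ITGB6 at chr2:160099666-160271888 and ITGAV, whose position is given with its values. RPKM counts reads over all exons of a gene, untranslated ones included, and does not separate transcripts.

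RefSeq promoter windows were found for 7 of the 9 members, 11 windows in all. In the 250 bases before the start, AACCACA or its reverse complement was found in 3.65% of all 35116 promoters, and among the members only in SPP1. The TATA-like word TTTAAA was found in 11.3% of all promoters and in 3 of the 11 member windows, those of SPP1, ITGB5 and ITGB6. The SPP1 match starts at -30, beyond the end of the stretch printed above. The E-box CACGTG, the word that MYC binds, was found in 6.34% of all promoters and in 0 of the 11. TGANTCA, the AP-1 word, was found in 6.57% of all promoters and in 0 of the 11. TATAAA was in 10.7% of all promoters and in 1 window of ITGB1. ACGTG, the hypoxia core that lies within CACGTG, was in 18.5% of all promoters and in the window of CD44. The ETS word CCGGAAG was in 8.52% of all promoters and in the window of ITGB5. All words were searched on both strands, and these matches describe the letters of the windows only.

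Values are RPKM as deposited (reads scaled to exon length and to all assigned reads), so levels can be compared between genes. Library totals ran from 20035025 to 28202422 recovered reads. In KYSE150 they ran from 20035025 to 22700935 in controls and from 26281327 to 28202422 in silenced libraries. Every silenced KYSE150 library was thus deeper than every control, which bears on read counts set side by side. In KYSE510 the totals of the groups overlapped. HCP5 itself was at 0.745 to 0.786 RPKM in KYSE150 controls and 0.315 to 0.579 in silenced libraries, which did not overlap. In KYSE510 it was at 0.914 to 1.85 in controls and 0.505 to 0.951 in silenced libraries, which overlapped. HCP5 did not pass the limma test in either line (adjusted p 0.267 in KYSE150 and 0.646 in KYSE510). Markers of squamous epithelium, listed with the more general epithelial genes EPCAM and CDH1, were well expressed. A mean of at least 1 RPKM was reached by 11 of 11 in both groups of KYSE150. In both groups of KYSE510 10 of 11 reached it, with PKP1 lowest there. The summed level of the 11 ran from 1122 to 1796 RPKM in KYSE150 controls and from 1396 to 3002 in silenced libraries. In KYSE510 it ran from 1561 to 2102 in controls and from 1932 to 3161 in silenced libraries. SPP1 is also a macrophage gene, and of the 10 macrophage markers in the table only CD68 reached 1 RPKM. Its group means were 36.5 to 40.0 RPKM. Over all 12 libraries CSF1R had 507 reads, ITGAM 94, CD14 78, MRC1 13, CD163 5, PTPRC 4, AIF1 3, LYZ 1 and TYROBP 1. Of 7 fibroblast markers, 0 reached 1 RPKM in any group, and of 5 endothelial markers 1 did, in KYSE510.

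**Figure D1:**
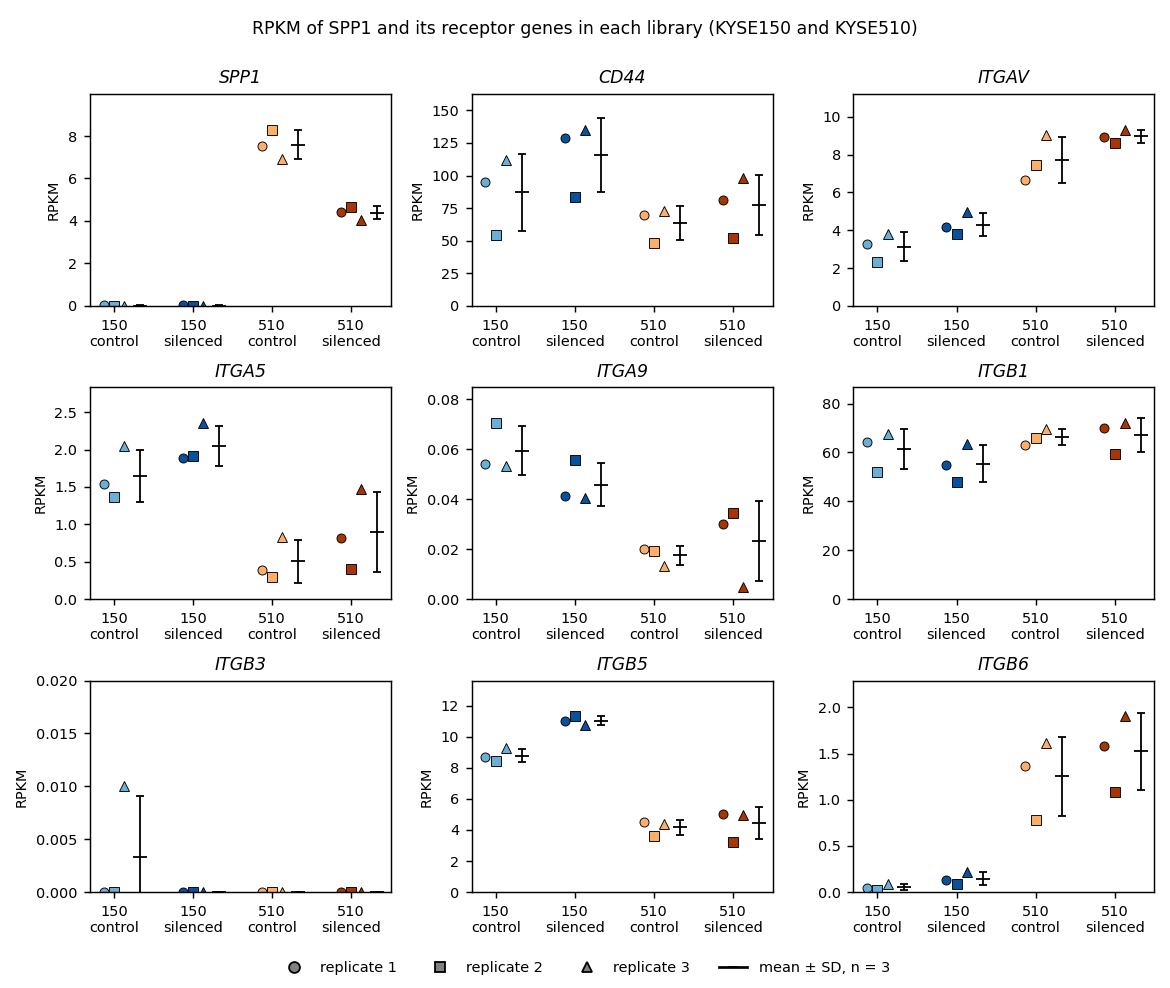
RPKM (vertical axis, from 0, with its own scale in each panel) of the 9 genes in every library of KYSE150 and KYSE510, with symbols for replicate numbers and bars for the mean ± SD of 3 libraries. SPP1 and ITGB6 stand high in KYSE510 and near 0 in KYSE150, ITGA5 and ITGB5 are lower in KYSE510, and ITGB3 has a single read in all.

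Between the control lines, SPP1 RNA was abundant enough to rank with ITGAV in KYSE510 and was close to absent from KYSE150. ITGAV and ITGB6 were higher in KYSE510, and ITGA5 and ITGB5 were higher in KYSE150. CD44 and ITGB1, the most abundant members in every group, did not pass the test between control lines.

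SPP1 had 7.54, 8.30 and 6.92 RPKM in KYSE510 control replicates 1, 2 and 3, from 421, 487 and 442 reads. In KYSE150 controls it had 1 read, 1 read and 0 reads, and in KYSE150 silenced libraries 2, 0 and 1. All 6 KYSE150 libraries were thus under the 3 reads taken here as the limit of detection, which is 0.0458 to 0.0645 RPKM for SPP1 in these libraries. Summed over controls, 1350 reads in KYSE510 stood against 2 in KYSE150, a ratio per total read of 556 with an exact 95% interval of 154 to 4594. The interval covers counting error only. Over silenced libraries 709 reads stood against 3, a ratio of 275 (93.7 to 1337). On the log2(RPKM + 0.5) scale, which understates such a difference, it was 3.97 (SE 0.09; limma adjusted p 2.9e-11). The KYSE510 controls of this test also entered the contrast by which SPP1 was chosen. SPP1 passed the filter through KYSE510 alone as well, so it could hardly fail to differ. In bulk RNA, fewer cells expressing a gene and less RNA per cell cannot be told apart.

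ITGAV, the alpha-v chain common to most osteopontin-binding integrins (chr2:186590065-186680901), had 3.26, 2.34 and 3.82 RPKM in KYSE150 controls and 6.66, 7.43 and 9.05 in KYSE510 controls. The groups did not overlap. The mean was 2.46 times as high in KYSE510, and the log2 difference was 1.19 (SE 0.16; limma adjusted p 4.8e-05). ITGA5, the alpha chain of the classical fibronectin receptor, went the other way, with 1.54, 1.36 and 2.04 RPKM in KYSE150 and 0.384, 0.292 and 0.835 in KYSE510. Its log2 difference was -1.12 (SE 0.27; limma adjusted p 0.0034). ITGA9 was low in both lines: KYSE150 controls had 9, 12 and 10 reads (0.0532 to 0.0706 RPKM) and KYSE510 controls 4, 4 and 3 (0.0132 to 0.0201 RPKM). ITGA9 was below the filter on low values and was not tested. It shares 535 of its 8277 exon bases with ITGA9-AS1 on the opposite strand, so its few reads are uncertain where counting did not use strand.

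ITGB6, a beta chain found in epithelia that pairs with alpha-v alone, had 1.37, 0.784 and 1.61 RPKM in KYSE510 controls, from 209, 126 and 282 reads. KYSE150 controls had 0.0471, 0.0230 and 0.0901 RPKM, from 6, 3 and 13 reads. The ratio per total read was 23.1 (exact 95% interval 15.1 to 37.1, counting error only), and the log2 difference was 1.64 (SE 0.20; limma adjusted p 2.5e-05). ITGB6 and SPP1 passed the filter through the KYSE510 libraries alone, so they could hardly fail to differ. ITGB5, the beta chain that also recognises vitronectin, was lower in KYSE510, with 4.49, 3.63 and 4.37 RPKM against 8.68, 8.40 and 9.26 in KYSE150 (log2 difference -0.997, SE 0.14; limma adjusted p 7.6e-05). ITGB1, the beta chain shared by many receptors, had 64.4, 52.1 and 67.7 RPKM in KYSE150 controls and 63.0, 65.9 and 69.5 in KYSE510 controls. These overlapped, with a log2 difference of 0.11 (SE 0.12; limma adjusted p 0.444).

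ITGB3, the beta chain of the vitronectin receptor of osteoclasts, had 1 read in KYSE150 control replicate 3 and 0 in the other 11 libraries. A count of 0 allows up to 3 reads per library, or 0.0242 to 0.0341 RPKM in these libraries. ITGB3 shares 2266 of its 4394 exon bases with RP11-290H9.2 on the same strand, where reads may have been dropped as ambiguous, and RP11-290H9.2 held 10 reads over the 12 libraries. CD44 had 95.1, 54.6 and 112 RPKM in KYSE150 controls and 70.1, 48.5 and 72.5 in KYSE510 controls. These ranges overlapped, and the log2 difference was -0.41 (SE 0.30; limma adjusted p 0.262). Of the 7 members tested, 5 passed between control lines, against 62.0% of all genes tested, so the count is near the background. The 3 higher in KYSE510 stand against 28.3% of all genes tested and the 2 lower against 33.7%. SPP1 and ITGB6, counted here, passed the filter through KYSE510 alone, so their calls were largely set by the filter. The libraries of the control groups did not overlap for the same 5 members, against 64.0% of all genes tested.

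**Figure D2:**
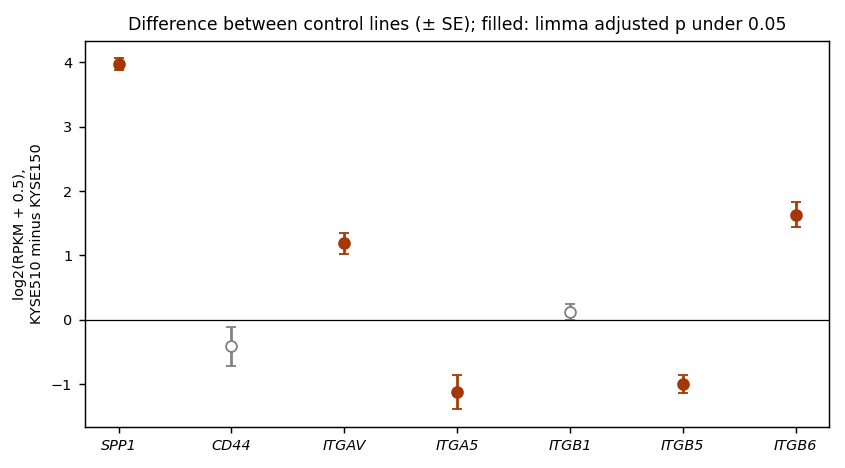
Difference in log2(RPKM + 0.5) between KYSE510 and KYSE150 controls (vertical axis, KYSE510 minus KYSE150) for the 7 members tested, as points with SE from limma over 12 libraries. Filled points passed an adjusted p of 0.05: SPP1 (3.97), ITGB6 (1.64) and ITGAV (1.19) above 0, ITGA5 (-1.12) and ITGB5 (-0.997) below. SPP1 and ITGB6 passed the filter through KYSE510 alone, so their calls were largely set by the filter.

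The order of mean levels in KYSE150 controls was CD44 (87.3 RPKM), ITGB1 (61.4), ITGB5 (8.78), ITGAV (3.14), ITGA5 (1.65), ITGA9 (0.0594), ITGB6 (0.0534), SPP1 (0.0142) and ITGB3. Neighbours whose libraries overlapped were CD44 and ITGB1, ITGA9 and ITGB6, and SPP1 and ITGB3. In KYSE510 controls the order was ITGB1 (66.2 RPKM), CD44 (63.7), ITGAV (7.71), SPP1 (7.59), ITGB5 (4.16), ITGB6 (1.25), ITGA5 (0.504), ITGA9 (0.0175) and ITGB3 (listed at 0). Here ITGB1 and CD44 overlapped, as did ITGAV and SPP1, and ITGB6 and ITGA5. In silenced KYSE510 cells SPP1 stood at 4.38 RPKM beside ITGB5 at 4.42, and these 2 overlapped.

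Among the 5 beta chains that can pair with alpha-v (ITGB1, ITGB3, ITGB5, ITGB6 and ITGB8), ITGB1 held most of the summed RPKM. Its share was 86.7% ± 1.14 in KYSE150 controls and 92.2% ± 1.08 in KYSE510 controls (SD, n = 3). ITGB1 also pairs with many other alpha chains, so its share is not a share of alpha-v complexes. ITGB5 held 12.5% ± 1.10 in KYSE150 and 5.81% ± 0.679 in KYSE510 controls, and ITGB6 0.0726% ± 0.0399 and 1.74% ± 0.549 (SD, n = 3). The shares of ITGB1, ITGB5, ITGB6 and ITGB8 did not overlap between control lines. In silenced libraries ITGB5 held 16.6% ± 2.30 in KYSE150 and 5.97% ± 0.797 in KYSE510 (SD, n = 3). In KYSE150 the ITGB5 share was above every control in each silenced library, at 14.3% to 18.9% against 11.8% to 13.8%. The same held there for ITGB6 (0.139% to 0.295% against 0.0377% to 0.116%) and ITGB8 (0.785% to 1.13% against 0.573% to 0.748%). The ITGB1 share was below every control there, at 79.9% to 84.3% against 85.4% to 87.6%. Shares of the same sum cannot move independently. In KYSE510 the silenced and control groups overlapped for each of these shares. These shares were not tested.

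**Figure D3:**
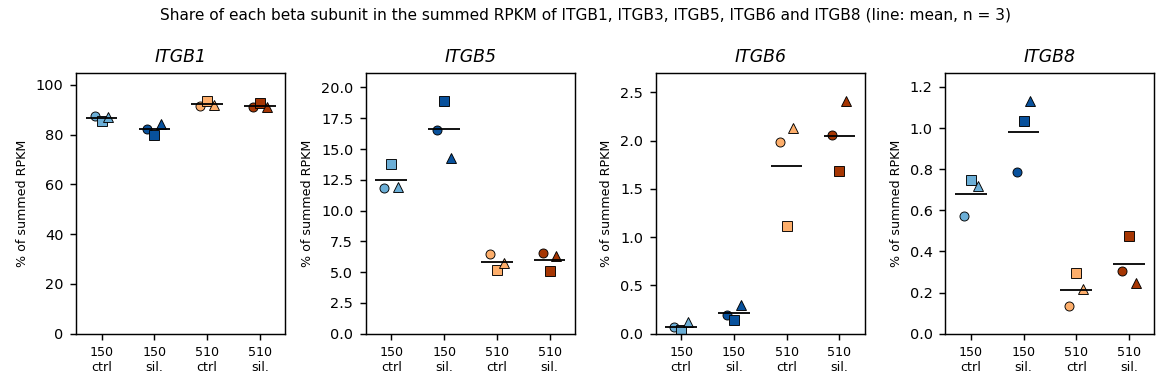
Share of ITGB1, ITGB5, ITGB6 and ITGB8 in the summed RPKM of the 5 beta chains that pair with alpha-v (vertical axis, percent, own scale in each panel), by library (circle, replicate 1; square, replicate 2; triangle, replicate 3), with a line at the mean of 3. ITGB5 takes 11.8% to 18.9% in KYSE150 and 5.06% to 6.55% in KYSE510, and ITGB6 is above 1% only in KYSE510.

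Silencing of HCP5 in KYSE510 is described next, without tests, since it is the contrast that brought SPP1 here. SPP1 went from 7.54, 8.30 and 6.92 RPKM in controls to 4.40, 4.67 and 4.07 in silenced replicates 1, 2 and 3, from 245, 229 and 235 reads. Every silenced library lay below every control. Within same-numbered pairs the ratio was 0.584, 0.563 and 0.588, and the mean fell from 7.59 ± 0.692 to 4.38 ± 0.302 RPKM (SD, n = 3), 0.577 of control. The log2 difference was -0.73 (SE 0.09). SPP1 was the 1 member whose groups did not overlap in KYSE510, where 12.1% of all genes tested had groups that did not overlap, 6.87% had all silenced libraries below all controls and 0.0393% passed limma at an adjusted p of 0.05.

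The receptor genes of KYSE510 did not share the lower level of SPP1. CD44 had 81.1, 52.5 and 98.1 RPKM in silenced libraries and ITGAV 8.93, 8.63 and 9.32. ITGA5 had 0.820, 0.400 and 1.47 RPKM, and ITGB6 1.59, 1.08 and 1.91. In 3 of 3 pairs with the same number, each of these 4 genes was higher after silencing, and each overlapped its controls. A higher value in 3 of 3 pairs of KYSE510 was seen in 16.0% of all genes tested. Pair ratios ran from 1.08 to 1.35 for CD44, from 1.03 to 1.34 for ITGAV, from 1.37 to 2.13 for ITGA5 and from 1.16 to 1.38 for ITGB6. ITGB1 (70.1, 59.4 and 72.2 RPKM) and ITGB5 (5.04, 3.24 and 4.99) were higher in 2 of 3 pairs. Log2 differences were 0.25 (SE 0.30) for CD44, 0.21 (SE 0.16) for ITGAV, 0.44 (SE 0.27) for ITGA5, 0.22 (SE 0.20) for ITGB6, 0.02 (SE 0.12) for ITGB1 and 0.06 (SE 0.14) for ITGB5. ITGA9 had 6, 6 and 1 reads in silenced libraries, and ITGB3 had 0 in each.

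The KYSE150 libraries did not enter the contrast by which SPP1 was chosen. There 0 of the 7 members tested passed limma at an adjusted p of 0.05, against 0.499% of all genes tested, and 2 (ITGAV and ITGB5) had an unadjusted p under 0.05, as did 18.1% of all genes tested. By voom on recovered reads 0 passed as well. With the replicate number as a block, which compares same-numbered libraries, CD44 and ITGAV passed, 2 of 7 against 6.7% of all genes tested. Both were higher, as were 5.04% of all genes tested. Each of these calls was lost when any of the 6 same-numbered pairs of the study was left out of the blocked fit. The median log2 change of the 7 members was 0.25, and that of all genes tested was 0.08. The counts of 7 and this median include SPP1, which had 0 to 2 reads in each KYSE150 library and could hardly pass. SPP1 and ITGB6 passed the filter through KYSE510 alone.

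CD44 had 95.1, 54.6 and 112 RPKM in KYSE150 control replicates 1, 2 and 3 and 129, 83.5 and 135 in silenced replicates 1, 2 and 3. The groups overlapped, while each silenced library was above its same-numbered control, by ratios of 1.36, 1.53 and 1.21. The log2 change was 0.44 with an SE of 0.30 (limma adjusted p 0.460). Blocking on the replicate number gave an SE of 0.09 (limma adjusted p 0.0385). Without a pair, the blocked adjusted p of CD44 in limma ran from 0.0627 to 0.136. Without KYSE150 control replicate 2, the lowest library, the unblocked change was 0.13.

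ITGAV had 4.15, 3.80 and 4.96 RPKM in silenced KYSE150 libraries against 3.26, 2.34 and 3.82 in controls, with pair ratios of 1.27, 1.62 and 1.30. Silenced replicate 2 lay just below control replicate 3, so the groups overlapped. The log2 change was 0.41 with an SE of 0.16 (limma adjusted p 0.215). Blocking on the replicate number gave an SE of 0.09 (limma adjusted p 0.0465). Without a pair, the blocked adjusted p of ITGAV in limma ran from 0.0597 to 0.164. Without KYSE150 control replicate 2 the unblocked change of ITGAV was 0.25.

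ITGB5 was the 1 member tested whose groups did not overlap in KYSE150, where 19.2% of all genes tested had groups that did not overlap and 13.7% had all silenced libraries above all controls. It had 8.68, 8.40 and 9.26 RPKM in controls and 11.0, 11.3 and 10.7 in silenced libraries, 1.26 times as high on average. The log2 change was 0.31 (SE 0.14), and it did not pass (limma adjusted p 0.268 unblocked and 0.0634 blocked). The smaller spread of ITGB5 is visible in the plot of RPKM by library, where its 3 replicates lie close together.

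The other receptors of KYSE150 did not pass in either fit. ITGA5 had 1.88, 1.91 and 2.36 RPKM in silenced libraries (log2 change 0.25, SE 0.27; limma adjusted p 0.639 unblocked and 0.150 blocked). ITGB6 had 22, 15 and 38 reads after silencing against 6, 3 and 13 in controls, or 0.132, 0.0837 and 0.222 RPKM, which overlapped the controls (log2 change 0.22, SE 0.20; limma adjusted p 0.575). The mean of ITGB6 was 2.73 times as high after silencing, and its log2 change understates this because the values are small beside 0.5. ITGB1 had 54.8, 48.0 and 63.3 RPKM, lower than the same-numbered control in 3 of 3 pairs (log2 change -0.15, SE 0.12; limma adjusted p 0.540 unblocked and 0.191 blocked). ITGA9 had 9, 13 and 9 reads and ITGB3 had 0 in each. SPP1 had a log2 change of 0.01 (SE 0.09; limma adjusted p 0.996) at 0 to 2 reads per library, which carries no direction.

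Within pairs, 5 of the 7 members tested were higher in 3 of 3 silenced libraries of KYSE150, against 37.4% of all genes tested. They were CD44, ITGAV, ITGA5, ITGB5 and ITGB6. The 7 include SPP1, at 0 to 2 reads per library there. CD44, ITGAV, ITGA5 and ITGB6 were higher in 6 of 6 pairs over both lines, as were 6.7% of all genes tested. For KYSE510 this count uses the contrast that brought SPP1 here. Library centring moved the median change of all genes in KYSE150 by -0.13 on the log2 scale, and with it CD44 was at 0.31 (limma adjusted p 0.616).

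**Figure D4:**
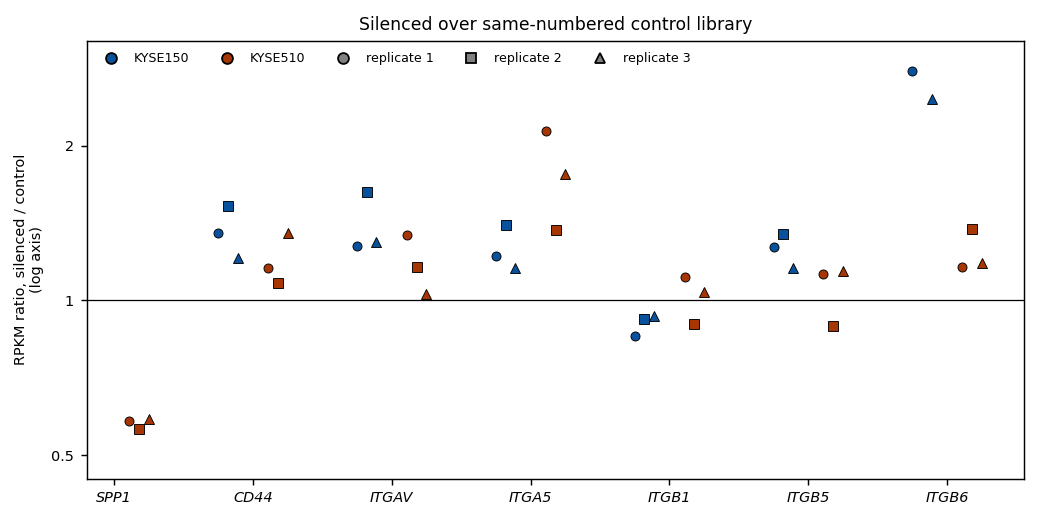
RPKM of each silenced library divided by its same-numbered control (vertical axis, log scale) for 7 members, KYSE150 in blue and KYSE510 in brown, with symbols for replicate numbers. Ratios are drawn where both libraries had at least 4 reads, which leaves out SPP1 in KYSE150 and ITGB6 in the pair of KYSE150 replicate 2. SPP1 in KYSE510 lies at 0.563 to 0.588, and CD44, ITGAV and ITGA5 lie above 1 in every pair.

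The order of replicates recurred across groups for several receptors. CD44 and ITGB6 were lowest in replicate 2 and highest in replicate 3 in 4 of 4 groups, an order that 1.13% of all genes tested showed and that was singled out after the values were seen. ITGAV, ITGA5 and ITGB1 were highest in replicate 3 in 4 of 4 groups and lowest in replicate 2 in 3 of 4. Of all genes tested, 12.9% were highest in replicate 3 in 4 of 4 groups, and 3.44% were also lowest in replicate 2 in at least 3. SPP1 was highest in replicate 3 in 0 of 4 groups. What the numbers share between libraries is not given by the labels.

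The other genes of the system were counted in 8 lists with 121 genes, of which 83 were tested. After silencing in KYSE150, 1 of the 83 passed limma, VAMP3, against 0.499% of all genes tested, and 13 passed with the replicate block, against 6.7%. With the block and without the pair of KYSE150 replicate 1, 2 or 3, the list genes that passed numbered 0, 1 and 3. VAMP3, a vesicle SNARE that returns integrins to the cell surface, went from 6.24 ± 1.08 to 3.11 ± 0.281 RPKM (SD, n = 3; log2 change -0.89, SE 0.11; limma adjusted p 0.0086). VAMP3 was listed with its fall in these data already known, so it adds no independent support. In KYSE510 VAMP3 was likewise the 1 list gene that passed, at 7.02 ± 0.452 against 16.4 ± 0.845 RPKM (SD, n = 3; log2 difference -1.17).

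Of 19 other integrin subunits, 7 were tested, and 0 passed limma in KYSE150. With the replicate block 3 of the 7 passed, all higher: ITGA6, ITGB4 and ITGA2, against 5.04% of all genes tested. Without the pair of KYSE150 replicate 1, 0 genes of any list passed with the block. These 3 calls and the blocked KYSE150 calls of the lists below were thus lost. ITGA6 and ITGB4 form the laminin receptor of hemidesmosomes, which anchor basal keratinocytes. ITGA6 went from 39.1 ± 12.1 to 66.0 ± 17.1 RPKM (SD, n = 3; log2 change 0.77; limma adjusted p 0.179, and 0.0118 with the block). ITGB4 went from 43.5 ± 12.2 to 66.3 ± 12.1 (SD, n = 3; log2 change 0.62; limma adjusted p 0.152, and 0.0213 with the block). ITGA2, a collagen receptor chain, went from 1.46 ± 0.183 to 2.30 ± 0.230 (SD, n = 3; log2 change 0.52; limma adjusted p 0.309, and 0.0385 with the block). All 7 subunits tested had a change above 0 in KYSE150, with a median of 0.35, while 66.1% of all genes tested were above 0, with a median of 0.08. The summed level of the epithelial markers reached higher in silenced libraries but overlapped the controls in both lines. Its part in these values was not tested. ITGA4, which also recognises the stretch exposed by thrombin, had 0 reads in the 6 KYSE150 libraries and 15 reads in KYSE510 controls.

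Between control lines, ITGA3 (29.8 ± 9.75 RPKM in KYSE150 and 35.7 ± 4.18 in KYSE510; SD, n = 3) and ITGA6 were far more abundant alpha chains than ITGAV. Neither passed between lines (limma adjusted p 0.294 for ITGA3 and 0.161 for ITGA6). ITGB4 was lower in KYSE510, at 22.9 ± 1.75 RPKM (SD, n = 3; log2 difference -0.88, SE 0.19; limma adjusted p 0.0019). Also past the threshold were ITGB8, lower in KYSE510, and ITGA1, higher, both under 1 RPKM. Each of these 2 reached the filter's minimum in 1 line alone, so their calls were largely set by the filter. Of the 7 other subunits tested, 1 was higher and 2 lower in KYSE510, against 28.3% and 33.7% of all genes tested. The bone-matrix relatives of SPP1 (IBSP, DMP1, DSPP and MEPE) were below the filter in every case, with IBSP highest at 16 reads over the KYSE510 controls and 27 over the KYSE510 silenced libraries.

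Genes that make or regulate SPP1 were all measured, 10 of 10. Between control lines 3 were higher in KYSE510 and 3 lower, against 28.3% and 33.7% of all genes tested. HIF1A, the hypoxia factor, had 18.0 ± 1.45 RPKM in KYSE150 and 63.0 ± 9.33 in KYSE510 (SD, n = 3; log2 difference 1.77, SE 0.11; limma adjusted p 1.2e-07), and SP1 differed by 0.39 (SE 0.13). RUNX2, a bone factor, was lower in KYSE510, at 0.0642 ± 0.0259 RPKM against 1.15 ± 0.199 (SD, n = 3), and passed the filter through KYSE150 alone. ETS1 (15.2 RPKM in KYSE150 against 2.56 in KYSE510) and FOSL1 (164 against 31.4) were also lower in KYSE510. Whether any of these factors acts on SPP1 in these cells was not tested. After silencing in KYSE150, 0 of these 10 passed in either fit, and in KYSE510 0 passed in either fit.

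Proteases that cut osteopontin, or act with those that do, had 6 of 9 tested. Between control lines 3 were higher and 3 lower in KYSE510, against 28.3% and 33.7% of all genes tested. MMP7, or matrilysin, had 4.67 ± 2.01 RPKM in KYSE510 and 0.0070 in KYSE150 (1 read over 3 libraries). MMP7 and MMP3 passed the filter through 1 line alone, so they could hardly fail to differ. The lysosomal protease CTSD had 91.9 ± 16.4 against 25.8 ± 3.50 RPKM (SD, n = 3), and CAPN1 29.9 ± 2.38 against 19.5 ± 3.40. PLAU, the urokinase gene, was lower in KYSE510 (3.93 ± 0.951 against 13.6 ± 4.50 RPKM; log2 difference -1.64, SE 0.31; limma adjusted p 0.00068), as was MMP2 (0.272 against 1.82). After silencing in KYSE150, PLAU alone of this list passed with the block, at 22.4 ± 5.79 RPKM (log2 change 0.72; limma adjusted p 0.254, and 0.0181 with the block).

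Other ligands of these receptors had 8 tested, with 2 higher and 5 lower in KYSE510 controls, against 28.3% and 33.7% of all genes tested. NPNT, nephronectin, a matrix ligand with the same tripeptide, was listed at 0 in KYSE150 controls and at 5.15 ± 0.483 RPKM in KYSE510 (SD, n = 3), and passed the filter through KYSE510 alone. FN1, fibronectin, was 5.39 ± 1.15 against 2.60 RPKM. The lower genes were TGM2 (0.672 against 41.7 RPKM), CYR61 (9.95 against 133), THBS1 (26.6 against 306), TNC (2.62 against 5.65) and TGFB1 (22.0 against 40.6). In KYSE150, TNC and TGM2 passed after silencing with the block only: TNC went from 5.65 ± 2.39 to 11.3 ± 4.46 RPKM (SD, n = 3; log2 change 0.94; limma adjusted p 0.220, and 0.0136 with the block).

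CD44 partners and hyaluronan genes had 13 tested, with 3 higher and 6 lower in KYSE510 controls, against 28.3% and 33.7% of all genes tested. The ERM proteins link CD44 to actin, and they split: EZR (255 against 481 RPKM; log2 difference -0.92) and RDX (14.7 against 39.7; -1.40) were lower in KYSE510, and MSN was higher (103 against 80.2; 0.36). ANK3 and ESRP2, a splicing factor that keeps variant exons of CD44, were higher by 1.22 and 0.22, and the hyaluronan receptor HMMR was lower by a log2 difference of -0.69. TMEM2, a cell-surface hyaluronidase, was lower in KYSE510 by a log2 difference of -0.31 and was the 1 gene of this list to pass after silencing in KYSE150, with the block only (6.02 ± 0.263 to 8.04 ± 0.248 RPKM; limma adjusted p 0.0601, and 0.0356 with the block).

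The adhesion core had 22 genes tested, with 4 higher and 9 lower in KYSE510 controls, against 28.3% and 33.7% of all genes tested. FERMT2 (kindlin-2), an activator of integrins, had 7.68 ± 1.28 RPKM in KYSE510 and 0.824 ± 0.120 in KYSE150 (SD, n = 3; log2 difference 2.62, SE 0.14; limma adjusted p 2.6e-08), while FERMT1, its epithelial relative, was lower (6.03 against 9.49). PTK2, the focal adhesion kinase, was higher by 0.67 and SRC by 0.43. RSU1, CAV1 and PARVA were lower, with log2 differences of -1.19, -1.09 and -0.59, as was TLN2 (0.512 against 1.52 RPKM). After silencing in KYSE150 only ILK and TNS4 passed, with the block, by 0.27 and 0.44 (limma adjusted p 0.227 and 0.313 without it, 0.0480 and 0.0385 with it).

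Traffic and modulator genes had 17 tested, with 7 higher and 4 lower in KYSE510 controls, against 28.3% and 33.7% of all genes tested. RAB4A, which drives rapid recycling of alpha-v receptors, had 13.6 ± 0.132 against 2.06 ± 0.369 RPKM (SD, n = 3; log2 difference 2.47). CD47, ARF6, VAMP3 and CD81 were higher by 1.45, 1.43, 1.34 and 1.05. ITGB1BP1, an inhibitor of beta-1 activation, was lower by a log2 difference of -0.91, followed by SLC3A2 (-0.60), RAB21 (-0.49) and GGA3 (-0.35). Over all 8 lists, 55 of 83 genes passed between control lines, near the 62.0% of all genes tested. Of the 83, 11 reached the filter's minimum in 1 line alone (ITGA1, ITGB8, MMP3, MMP7, FAM20C, RUNX2, NPNT, HYAL1, CEMIP, ANK3 and TNS2), and all 11 are among the 55, so their calls were largely set by the filter. With the block in KYSE150, ARF6, SNX17 and CD9 passed, with changes of 0.61, 0.40 and 0.41 (limma adjusted p 0.126, 0.0770 and 0.467 without it, 0.0359, 0.0309 and 0.0286 with it).

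The genes whose pattern was most like that of SPP1 over the 12 libraries, by Pearson r of log2 values, were NPR3, AKR1C3, SLC16A7, GULP1 and RFWD2, with r from 0.998 to 0.999. These libraries fall into 2 clusters, the lines, so r mainly reflects the gap between them. NPR3, a natriuretic peptide receptor, had 0.0050 RPKM in KYSE150 controls, 1.96 ± 0.207 in KYSE510 controls and 1.42 ± 0.0347 in KYSE510 silenced libraries (SD, n = 3). AKR1C3, a steroid and prostaglandin reductase, had 0.0102, 2.93 ± 0.484 and 1.95 ± 0.190 RPKM in the same groups. RFWD2 was the 1 gene of the 5 present in both lines, at 3.63 ± 0.0512 RPKM in KYSE150 controls and 5.68 ± 0.0995 in KYSE510 controls.

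Over the 6 KYSE510 libraries the closest genes were INTS4P2, RP11-286B14.2, TPD52L1, HDDC2 and ANP32BP1, with r from 0.990 to 0.995. TPD52L1 went from 31.9 ± 1.17 to 24.4 ± 0.197 RPKM in KYSE510 and HDDC2 from 36.2 ± 1.25 to 29.8 ± 0.359 (SD, n = 3). INTS4P2 and ANP32BP1 carry pseudogene names and share sequence with their parent genes, so their reads are uncertain. Of the receptors, ITGB6 and ITGAV had r of 0.93 and 0.88 with SPP1 over 12 libraries but -0.56 and -0.74 over the 6 of KYSE510. These values share library totals and the contrast that brought SPP1 here, and are descriptions only.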

How the data were processed

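RNA-seq values of 12 libraries in 4 groups of 3 were used. The deposited values are RPKM, which the authors scaled to summed exon length and to the reads assigned to the table's genes. Per the submitters' processing notes, HISAT2 and GRCh38 were used. The annotation release, strand setting and filters are not given in the sources used here. Reads per gene were recovered from RPKM and exon length, and 100% of values came out whole (tolerance 0.05 reads). Values were tested as log2(RPKM + 0.5) for the 17823 genes with at least 0.5 RPKM in at least 3 libraries, with limma 3.58.1 in R 4.3.3 (4 group means, eBayes with trend, 8 residual degrees of freedom). P-values were two-sided and adjusted by Benjamini-Hochberg over all genes tested, with a threshold of 0.05. The fit was tested on simulated data. Since RPKM is relative, a change in abundant genes shifts the values of the rest.

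Replicate numbers come from the titles. Deviations of same-numbered control and silenced libraries correlated at 0.147 to 0.415 in 6 of 6 pairs, and those of other numbers at -0.385 to 0.184, so a fit with the number as a block (4 residual degrees of freedom) is given where it changes a call.

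Members and lists were chosen with earlier results of these data known. Named genes are the members and HCP5, up to 5 genes per list, direction and contrast past the threshold with at least 1 RPKM in the higher group, and the 5 genes with the highest r with SPP1. ITGA1, ITGA3, ITGA4, ITGB8 and IBSP, the markers, list genes that passed only with the block, and those that reached the minimum in 1 line alone were named after their values were seen.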

Additional observations from a re-analysis of the deposited data

How the results depend on the processing

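The 5 members that passed between control lines (SPP1, ITGAV, ITGA5, ITGB5 and ITGB6) did so in the same direction under all 9 alternatives and in all 12 fits without a library. For SPP1 and ITGB6, which passed the filter through KYSE510 alone, this says little, and the SPP1 test shares controls with the contrast that SPP1 was chosen by. With no filter on low values ITGA9 was tested too and passed as well (limma adjusted p 0.0092), which made 6. In KYSE150, 0 members passed under the alternatives other than the replicate block, where 2 did, and 0 did with the block and any pair left out, an alternative chosen after seeing the data. The change of SPP1 in KYSE150, at 0 to 2 reads, had no stable sign. It was -0.124 with centring, -0.0432 with quantile normalization and -0.114 with voom, and ran from -0.0173 to 0.0285 without a library. With the replicate block it was -0.0070 without the pair of KYSE150 replicate 1 and -0.0142 without that of replicate 3. In KYSE510, without a library, the change ran from 0.0566 to 0.505 for CD44, from 0.16 to 0.72 for ITGA5, from 0.12 to 0.33 for ITGAV, from -0.03 to 0.11 for ITGB1, from -0.04 to 0.25 for ITGB5, from 0.0070 to 0.38 for ITGB6 and from -0.79 to -0.66 for SPP1.

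Genes called in KYSE150 numbered 89, and 7 with the libraries of the line alone, 154 with quantile normalization, 1194 with the replicate block and 15 to 1287 without a library. With the block and without a pair they numbered 0, 46 and 59 (KYSE150 replicates 1, 2 and 3) and 461, 165 and 174 (KYSE510). List genes called there numbered 1, and 0 with the line alone, 2 with voom, 13 with the block and 1 to 11 without a library. With the block and without a pair they numbered 0, 1 and 3 (KYSE150) and 10, 4 and 6 (KYSE510). Genes called in KYSE510 numbered 7, and 44 with no filter, 0 with the line alone, 3 with a pseudocount of 0.1, 11 with quantile normalization, 20 with the block, 2 to 7 without a library and 0 to 6 with the block and without a pair, among them 2 and 3. The list gene called there, VAMP3, was lost with the line alone and with the block and without any KYSE510 pair, which left 0. The cause of these differences was not tested. The contrast between control lines has no blocked value, since the block was fitted within each line. Whether the numbers also pair libraries across lines was not tested. Few replicates and low reads of SPP1, ITGA9, ITGB3 and ITGB6 in KYSE150 limit what these libraries can show.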
